A study of Rattus norvegicus with 7 samples.

Results

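Antioxidant and glutathione genes were followed in heart muscle cells of newborn rats that had received a synthetic microRNA (miRNA). The group holds 10 of the 17141 genes in the deposited table, picked by symbol as genes of a known role, with no cut on a measured value: Nfe2l2, Nqo1, Gclc, Gclm, Txnrd1, Sod1, Sod2, Cat, Gpx1 and Prdx3. All 10 were found once, all are protein-coding, and all passed the limit on low values used here, at least 1 RPKM on average (12330 genes passed). RPKM divides the reads of a gene by its length and by the size of the library, so levels can be set side by side between genes. Ventricular cardiomyocytes of wild-type Wistar rats at postnatal day 0 were taken from cells that had not attached during a first plating, grown in medium with fetal serum and transfected with 1 miRNA at 25 nM. RNA was isolated 72 h later; whether hearts were pooled is not stated. The 7 groups were cel-miR-67 (a nematode miRNA, used as the reference here because the authors' ratios use it) and 6 human miRNAs: miR-1825, miR-33b*, miR-590-3p, miR-199a-3p, and the pair miR-302d-3p and miR-373-3p. Each group is 1 library, so no difference has a replicate check and no test was possible; "higher" and "lower" describe these libraries. By its title, the study concerns pathways shared by miRNAs that induce cardiomyocyte proliferation.

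Reactive oxygen species are by-products of respiration. After birth, as the heart turns to oxygen-rich metabolism, oxidative DNA damage is one of the signals known to stop cardiomyocyte division. Superoxide is turned into hydrogen peroxide by superoxide dismutases, and the peroxide is removed by catalase, by glutathione peroxidases and by peroxiredoxins. NRF2 (encoded by Nfe2l2) is held down by KEAP1 and, when released, binds antioxidant response elements near genes that make glutathione and reduce thioredoxin. Within the group, Nfe2l2 is the regulator, Nqo1, Gclc, Gclm and Txnrd1 are classic NRF2 targets, Sod1 and Sod2 act on superoxide, and Cat, Gpx1 and Prdx3 act on peroxide.

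The libraries held 22616067 to 31963293 reads in listed genes, and the 10 genes had 422 to 3845 reads in a library, worked out from the RPKM. Transcripts of the mitochondrial genome took 41.0% of the listed reads in the cel-miR-67 library, 41.4% after miR-590-3p and 27.7% to 37.9% in the other 5. Cardiomyocyte markers were abundant, with Tnnt2 at 1607 to 2440 RPKM. Summed over the 6 markers of that list they were at 11248 RPKM in the reference library and 8310 to 11195 in the others. None of the matched markers of other cells was at 0 in any library, and the smooth muscle marker Tagln, at 399 to 706 RPKM, exceeded the cardiomyocyte marker Actn2 (155 to 230.1 RPKM). Fibroblast markers (6 of 6 matched) summed to 209.9 RPKM in the reference library and 119 to 161 in the others. Smooth muscle markers (5 of 5) summed to 751 in the reference and 762 to 1165 in the others. The corresponding sums were 21.6 and 13.3 to 17.0 for endothelial markers (5 of 6), 15.2 and 8.05 to 14.2 for macrophage markers (6 of 6), and 4.18 and 2.29 to 5.22 for erythroid markers (4 of 6). Of the smooth muscle markers, only Cnn1 was above the reference in every other library (88.8 RPKM against 151 to 298). Tagln (478 against 399 to 706) and Acta2 (164 against 115 to 284) lay on both sides of it. So did Myh11 (13.8 against 6.12 to 16.0) and Smtn (5.96 against 5.36 to 7.80). In bulk RNA, fewer cells of a type and less RNA per cell cannot be told apart.

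The core of the antioxidant response element was searched as TGACNNNGC on both strands in the promoter windows of RefSeq (build GRCr8), which run from 250 bases before to 50 bases after a gene's start. All 10 genes had a window, Txnrd1 having 2. A match stood in 1 window each of Gclm, Txnrd1, Sod2 and Nfe2l2, that is in 4 of 11 windows, against 12.1% of all 33469 windows and 14.3% of the windows of protein-coding genes in the table. The matches are shown with up to 30 bases on either side, because Sod2, described below, also has a match. Among the classic NRF2 targets, Nqo1 and Gclc had no match. Whether NRF2 binds at any match was not tested. The 9 matching bases are in capitals and the gene's strand is given 5′ to 3′. On the strand shown the Gclm, Txnrd1 and Sod2 matches are reverse complements of the motif, beginning 172, 78 and 35 bases before the start. The Nfe2l2 match is in the forward sense, 38 bases after the start.
Gclm, chr2:213031933-213032001, plus strand: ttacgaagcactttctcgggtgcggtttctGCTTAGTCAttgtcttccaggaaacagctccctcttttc
Txnrd1, chr7:22755944-22756012, minus strand: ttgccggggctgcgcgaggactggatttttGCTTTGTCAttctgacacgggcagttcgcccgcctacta
Sod2, chr1:50050165-50050233, minus strand: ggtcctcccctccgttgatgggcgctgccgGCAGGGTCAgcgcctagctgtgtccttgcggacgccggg
Nfe2l2, chr3:81028950-81028991, minus strand: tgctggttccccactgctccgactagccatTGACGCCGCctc
No match in a window says only that these letters are not in it. Of the transfected miRNAs, miR-199a-3p, after which Sod2 was lowest and Nqo1 highest, has a rat entry of the same name in RefSeq, shown with its seed (bases 2 to 8) in capitals.
rno-miR-199a-3p: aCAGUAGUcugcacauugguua

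Differences from the cel-miR-67 library were small for most of the 10 genes. Each is expressed on the log2 scale, after adding 1 to both RPKM values, as the miRNA library over the reference, where 1.5-fold is 0.58. Of the 60 pairs of a gene and a miRNA library, 0 were at least 1.5-fold higher, 8 were at least 1.5-fold lower, and 0 passed 2-fold in either direction. Those 8 were Gpx1 in 5 libraries and Sod2 in 3. Of all 12330 genes, 4.81% passed 1.5-fold upward and 5.55% downward after miR-199a-3p, where 1 of the 10 genes (Sod2) was lower. The shares were 4.7% and 3.49% after miR-590-3p (1 lower, Gpx1), 4.83% and 6.56% after miR-373-3p (2 lower, Sod2 and Gpx1), and 5.11% and 7.32% after miR-302d-3p (2 lower, the same genes). They were 5.17% and 5.52% after miR-33b* (1 lower, Gpx1), and 5.94% and 6.33% after miR-1825 (1 lower, Gpx1). Over the 6 libraries together, 13.3% of the pairs of the 10 genes were at least 1.5-fold lower, against 5.79% of all gene and library pairs; those 8 pairs come from 2 genes and share 1 reference library. The median of the 10 lay between -0.17 (miR-302d-3p) and 0.07 (miR-373-3p), and that of all genes between -0.0034 and 0.015. All 6 comparisons share the cel-miR-67 library.

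**Figure D1:**
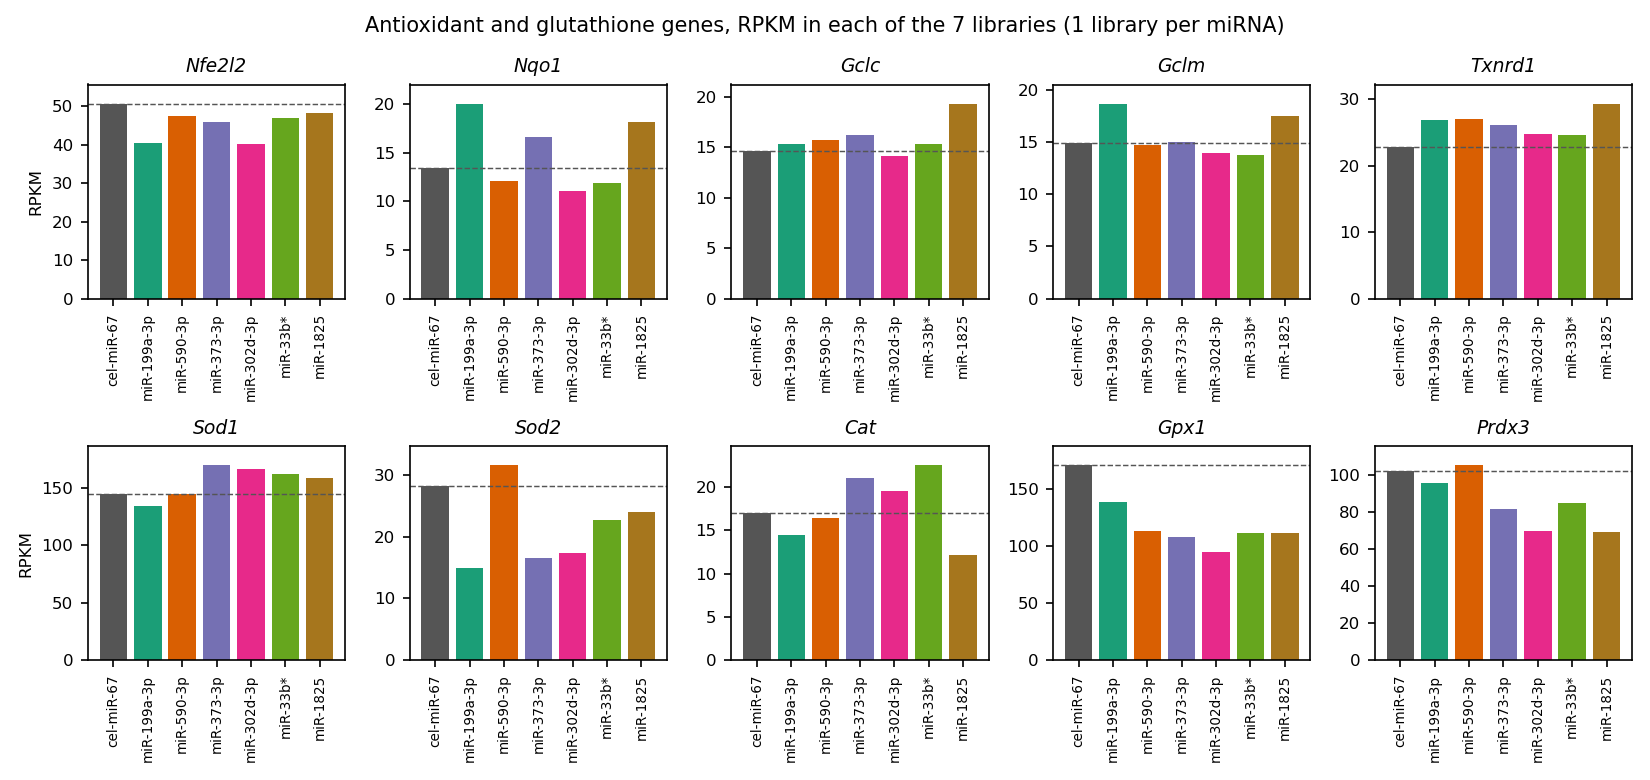
RPKM (y axis, from 0, own scale per gene) of the 10 genes in each of the 7 libraries (x axis), 1 bar per library; the dashed line marks the cel-miR-67 level. Gpx1 stood highest in the cel-miR-67 library (170.2 RPKM), and Sod2 was at 14.98 to 17.4 RPKM in the miR-373-3p, miR-199a-3p and miR-302d-3p libraries against 28.3.

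Beside these changes stand 95% intervals for the ratio between read rates (exact, Clopper-Pearson), which carry no pseudocount and cover counting error only. The interval lay wholly above 1 in 21 of the 60 pairs, wholly below 1 in 25, and held 1 in 14. Also compared were miR-302d-3p and miR-373-3p, which share a seed but are different miRNAs and not replicates. Between their libraries the interval excluded 1 for 7 of the 10 genes, and 9 of 10 were lower after miR-302d-3p. Neither the intervals nor the genes lower after miR-302d-3p than after miR-373-3p were counted over all genes. So none of these counts, the 21, 25 and 14 above included, can be called particular to the group. Over 5182 genes averaging 10 RPKM or more the log2 difference between these libraries had an SD of 0.17. Intervals that exclude 1 compare these libraries, not the conditions.

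Nfe2l2, the regulator, was highest in the cel-miR-67 library. Its levels were 50.6 RPKM there, 40.4 with miR-199a-3p, 47.5 with miR-590-3p, 46.0 with miR-373-3p, 40.1 with miR-302d-3p, 47.1 with miR-33b* and 48.3 with miR-1825. All 6 values were below the reference, by 0.07 to 0.33 on the log2 scale (-0.33 to -0.07), and with values scaled to all listed reads 4 of them turned positive. Its narrow range, 1.26-fold from lowest to highest, was the smallest of the group. The ratio to cel-miR-67 was 0.792 (0.752 to 0.834) after miR-302d-3p and 0.798 (0.755 to 0.843) after miR-199a-3p, and the interval held 1 with miR-1825 (0.905 to 1.01). Nfe2l2 and Gpx1 were the 2 genes of the group below 0 in all 6 libraries, a pattern shown by 13.4% of all genes.

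Of 9 measured genes on the list of other NRF2 regulators, 4 were below 0 in all 6 libraries and 0 above, against 13.4% and 13.9% of all genes. Of 54 gene and library pairs 4 were at least 1.5-fold lower and 0 higher, against 5.79% and 5.09% of all pairs. All 4 were Mafk, a small MAF protein that pairs with NRF2 on DNA. It was at 36.3 RPKM in the reference library, 33.2 with miR-590-3p, 23.9 with miR-199a-3p, 20.1 with miR-1825 and 16.7 to 17.3 in the remaining 3, a log2 change of -1.08 to -0.12. Nfe2l1, a relative of NRF2, was at 42.0 RPKM against 30.0 to 38.4 (-0.47 to -0.13). The autophagy receptor gene Sqstm1 (38.7 RPKM against 33.5 to 47.7) and the ubiquitin ligase subunit gene Rbx1 (76.1 against 66.9 to 88.4) lay on both sides of the reference. Keap1, named after its values were seen because it is the partner of NRF2, was at 8.20 RPKM in the reference library and 5.31 to 7.58 in the others.

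The 4 NRF2 targets were mostly at or above the reference, with their highest values after miR-199a-3p or miR-1825. Nqo1, a quinone reductase widely read as a gauge of NRF2 activity, was at 13.4 RPKM after cel-miR-67, 20.0 with miR-199a-3p, 12.1 with miR-590-3p, 16.6 with miR-373-3p, 11.1 with miR-302d-3p, 11.9 with miR-33b* and 18.2 with miR-1825. It stood on both sides of the reference, 3 libraries above and 3 below. Its ratios to cel-miR-67 were 1.496 (1.34 to 1.68) after miR-199a-3p, a log2 change of 0.55, and 1.36 (1.21 to 1.53) after miR-1825. Yet the libraries of the shared seed differed as much: after miR-302d-3p Nqo1 was at 0.669 (0.601 to 0.744) of its level after miR-373-3p.

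Gclc and Gclm encode the catalytic and modifier subunits of glutamate-cysteine ligase, the first step of glutathione synthesis. Gclc was at 14.6 RPKM after cel-miR-67, 15.3 with miR-199a-3p, 15.7 with miR-590-3p, 16.2 with miR-373-3p, 14.1 with miR-302d-3p, 15.3 with miR-33b* and 19.3 with miR-1825. The miR-1825 library was highest, at 1.32 (1.22 to 1.43) times the reference, followed by miR-373-3p (1.11, 1.03 to 1.20), and the other 4 intervals held 1. Gclm was at 14.9 RPKM after cel-miR-67, 18.6 with miR-199a-3p, 14.7 with miR-590-3p, 14.99 with miR-373-3p, 13.9 with miR-302d-3p, 13.8 with miR-33b* and 17.5 with miR-1825. Here miR-199a-3p (ratio 1.25, 1.11 to 1.40) and miR-1825 (1.17, 1.04 to 1.32) were high, and the other 4 intervals held 1. The Gclc to Gclm ratio of RPKM within a library was 0.824 (0.752 to 0.903) after miR-199a-3p and 0.976 to 1.11 in the other 6.

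Txnrd1, the selenoenzyme that reduces cytosolic thioredoxin, was the 1 gene of the group above 0 in all 6 libraries, as were 13.9% of all genes. It was at 22.8 RPKM after cel-miR-67, 26.9 with miR-199a-3p, 27.0 with miR-590-3p, 26.2 with miR-373-3p, 24.7 with miR-302d-3p, 24.6 with miR-33b* and 29.3 with miR-1825. The changes were 0.11 to 0.35, with the largest ratio after miR-1825 (1.29, 1.21 to 1.36), and each interval excluded 1. All 6 intervals share the cel-miR-67 library, where the level was lowest. The average of the other 5 miRNA libraries is a reference in which a difference common to all 6 cannot show. Against that average Txnrd1 was between -0.12 (miR-33b*) and 0.17 (miR-1825). Its substrate gene Txn1 also stood above the reference throughout, at 173 RPKM against 191 to 256 (0.14 to 0.56).

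Among 13 other NRF2 targets that were measured, 0 of 78 gene and library pairs were at least 1.5-fold higher and 2 were lower, against 5.09% and 5.79% of all pairs. The list median lay above 0 in every library, from 0.05 with miR-590-3p to 0.26 with miR-373-3p. Txn1 and the glucuronate enzyme gene Ugdh (13.0 RPKM against 14.9 to 18.7) had the highest mean changes. Above 0 in all 6 libraries were 3 of the 13, these and Gsr, which was named after its values were seen. Below 0 in all 6 were 0. Of all genes, 13.9% were above and 13.4% below. The 2 lower pairs were Srxn1 and Abcc4 after miR-302d-3p, named after their values were seen. Among genes averaging 5 RPKM or more, Ephx1, an epoxide hydrolase gene, had the lowest mean change and was at -0.58 with miR-590-3p and 0.47 with miR-373-3p. The NADPH-producing gene Me1 lay between -0.24 and 0.30.

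The superoxide dismutases of the group parted. The mitochondrial enzyme was lower in 5 of 6 libraries and the cytosolic one higher in 5 of 6 (after miR-590-3p by only 0.0024 on the log2 scale). Sod1, cytosolic, was at 145 RPKM after cel-miR-67, 134 with miR-199a-3p, 145 with miR-590-3p, 169.7 with miR-373-3p, 166 with miR-302d-3p, 163 with miR-33b* and 159 with miR-1825. These changes were within -0.11 to 0.23, and the value after miR-199a-3p turned positive (0.24) when scaled to all listed reads. Sod2, the manganese enzyme of the mitochondrial matrix, was at 28.3 RPKM after cel-miR-67, 14.98 with miR-199a-3p, 31.5 with miR-590-3p, 16.5 with miR-373-3p, 17.4 with miR-302d-3p, 22.8 with miR-33b* and 24.0 with miR-1825. Its levels made a low set of 3 libraries, a middle pair, and a high pair made of cel-miR-67 and miR-590-3p. The ratio furthest from 1 in the group was that of Sod2 at 0.530 (0.485 to 0.578) after miR-199a-3p, with its next ratios at 0.582 (0.536 to 0.632) after miR-373-3p and 0.615 (0.568 to 0.665) after miR-302d-3p. The log2 changes were -0.87, -0.75 and -0.67. Scaled to all listed reads they were -0.54, -0.56 and -0.43, and none of the 3 reached 1.5-fold. The libraries of the shared seed differed less, at 1.06 (0.972 to 1.15).

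The ratio of Sod1 to Sod2 within a library does not depend on how libraries were scaled. It was 5.13 (4.78 to 5.49) after cel-miR-67 and 4.604 (4.32 to 4.91) after miR-590-3p. It reached 8.95 (8.26 to 9.69) after miR-199a-3p, 10.3 (9.62 to 11.1) after miR-373-3p and 9.57 (8.97 to 10.2) after miR-302d-3p. The values after miR-33b* and miR-1825, 7.14 (6.64 to 7.69) and 6.62 (6.20 to 7.07), lay between. The same 3 libraries that were low in Sod2 thus had the highest ratios. Because Sod1 varied less than Sod2, the ratios mostly restate the Sod2 levels and are no separate result.

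**Figure D2:**
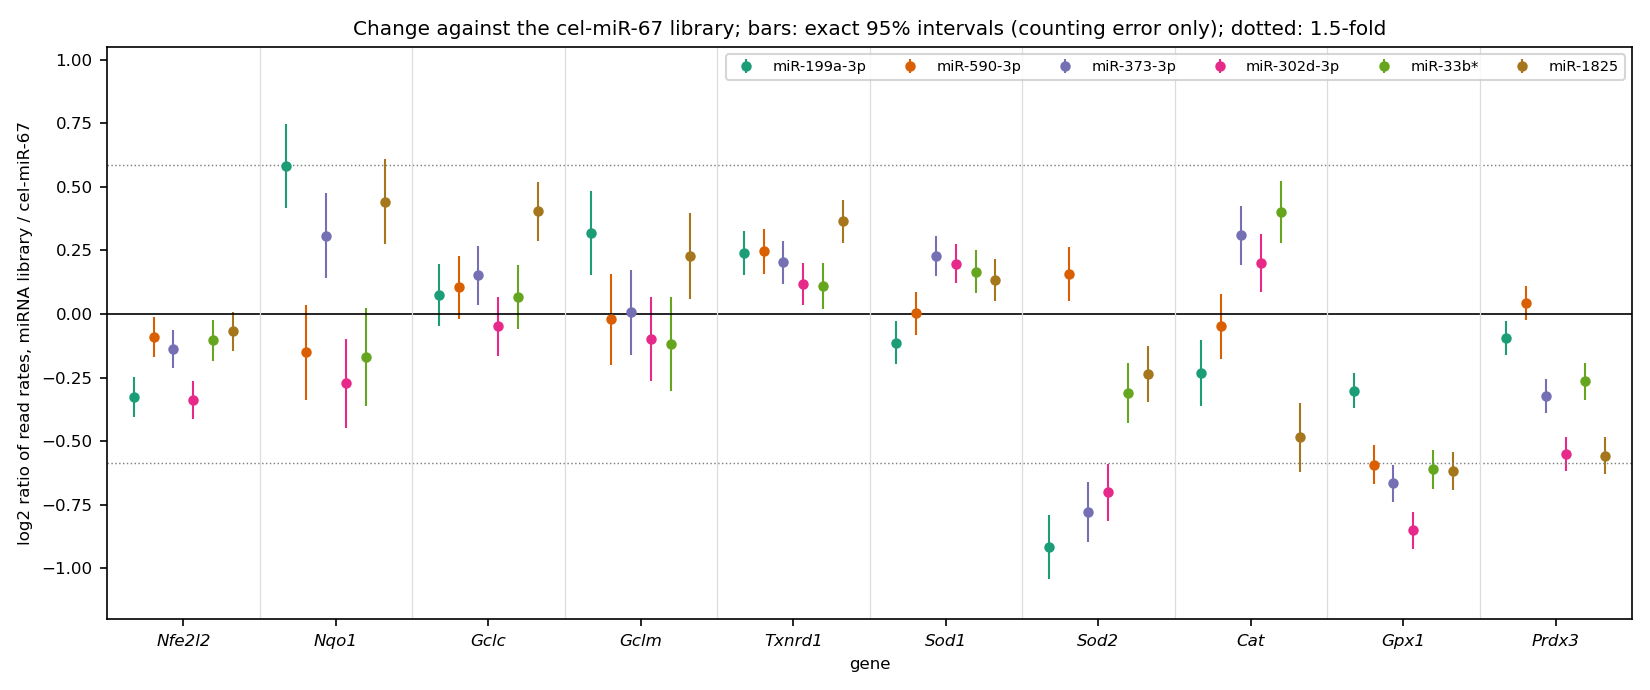
Log2 ratio of read rates to the cel-miR-67 library (y axis) for the 10 genes (x axis), 1 point per miRNA library with its exact 95% interval for counting error; dotted lines mark 1.5-fold. Gpx1 lies below 0 in all 6 libraries and Txnrd1 above 0 in all 6, while Sod2 ranges from a ratio of 0.530 with miR-199a-3p to 1.12 with miR-590-3p.

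Over the 7 libraries the gene whose pattern was nearest to that of Sod2, out of 7846 genes averaging 5 RPKM or more, was Mt-co1, a cytochrome oxidase subunit encoded in the mitochondrial genome. Likeness was the root mean square difference of log2(RPKM + 1) after centring, 0.11 for Mt-co1, and it is a description over 7 libraries that share the authors' scaling. The next were Tfb2m (0.11), a factor needed to transcribe mitochondrial DNA, and the AY172581.24 row, a mitochondrial ribosomal RNA (0.13). Mt-co1 was at 18554 RPKM after cel-miR-67, 9813 with miR-199a-3p, 17892 with miR-590-3p, 11909 with miR-373-3p, 10556 with miR-302d-3p, 12991 with miR-33b* and 14884 with miR-1825. Tfb2m was at 19.2, 10.8, 21.4, 14.1, 13.1, 17.9 and 16.3 RPKM in the same order. Both were lowest after miR-199a-3p and at their highest levels in the cel-miR-67 and miR-590-3p libraries, as Sod2 was. All 13 messenger RNAs of the mitochondrial genome were below 0 in all 6 libraries, with medians of -1.11 with miR-199a-3p, -0.61 with miR-302d-3p, -0.44 with miR-373-3p and -0.32 to -0.19 in the other 3. Whether less mitochondrial RNA has a part in the Sod2 levels was not tested.

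**Figure D3:**
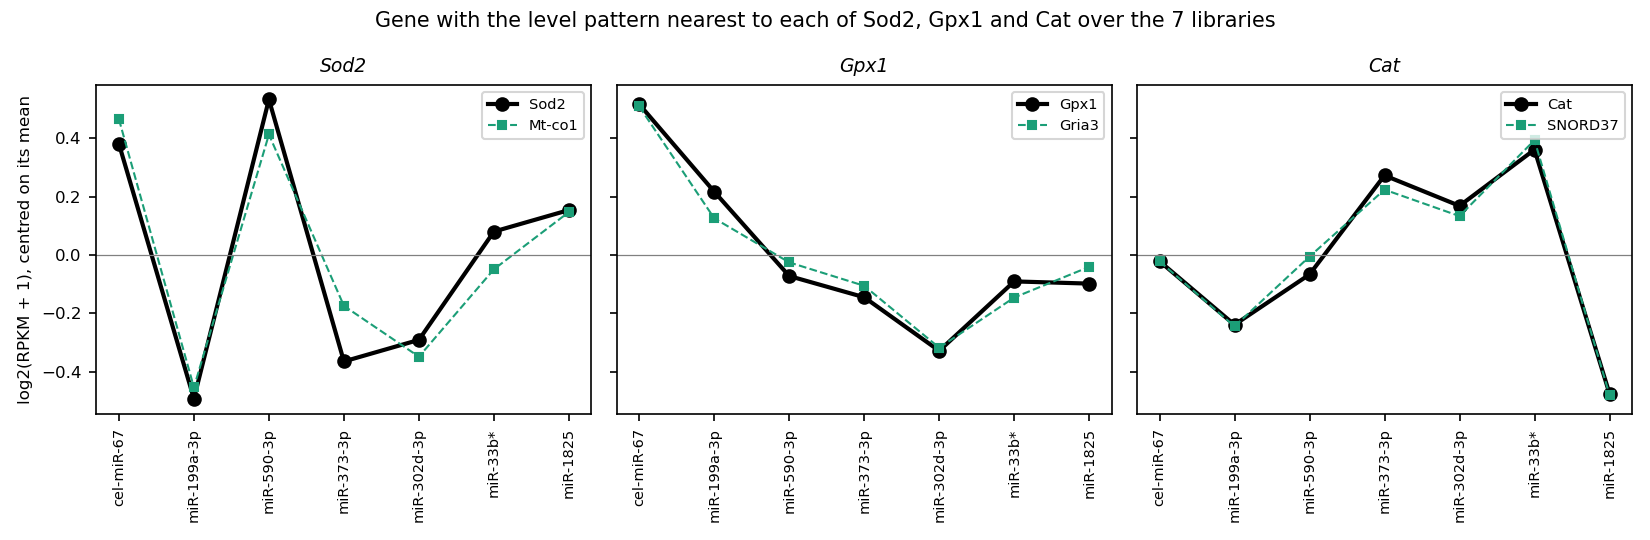
Centred log2(RPKM + 1) (y axis) over the 7 libraries (x axis) for Sod2, Gpx1 and Cat (black) and the 1 gene nearest to each (coloured, dashed). Sod2 and Mt-co1 both dip after miR-199a-3p, and Gpx1 and Gria3 are highest in the cel-miR-67 library.

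Nuclear genes of mitochondrial redox control did not all follow Sod2. Of 9 measured, 2 were below 0 in all 6 libraries and 1 above, against 13.4% and 13.9% of all genes. At least 1.5-fold higher were 3 of 54 pairs and lower was 1, against 5.09% and 5.79% of all pairs. The 2 genes below 0 in all 6 were Txn2, the mitochondrial thioredoxin (45.3 RPKM against 31.3 to 37.5, changes of -0.52 to -0.26), and its reductase Txnrd2 (7.19 against 3.93 to 6.31, -0.73 to -0.16). The matrix glutaredoxin gene Glrx2 was at 27.4 RPKM after cel-miR-67 and 27.5 to 34.4 in the others (0.0040 to 0.32). The uncoupling protein gene Ucp2 was at 16.4 RPKM after cel-miR-67, 11.1 with miR-199a-3p and 32.5 with miR-302d-3p, its largest change (0.95).

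For the removal of peroxide, Gpx1 was lower in every miRNA library, except that its value after miR-199a-3p turned positive when scaled to all listed reads, and catalase went in both directions. Gpx1, the main cellular glutathione peroxidase and a selenoprotein, was at 170.2 RPKM after cel-miR-67, 138 with miR-199a-3p, 113 with miR-590-3p, 107 with miR-373-3p, 94.3 with miR-302d-3p, 111 with miR-33b* and 111 with miR-1825. The reference stood above all 6 others, which themselves spanned 94.3 to 138 RPKM. The ratios ran from 0.554 (0.527 to 0.583) after miR-302d-3p to 0.811 (0.773 to 0.852) after miR-199a-3p, with 0.630 to 0.663 in the other 4, and the log2 changes from -0.84 to -0.30. At least 1.5-fold lower were 5 of the 6, and 3 of these lay near the limit (-0.59 with miR-590-3p, -0.61 with miR-33b* and -0.61 with miR-1825). Scaled to all listed reads, only the value after miR-302d-3p passed it (-0.60), the other 4 being at -0.57 to -0.47. Scaled to listed reads without the mitochondrial genome, those after miR-590-3p and miR-33b* did not pass it (-0.56 each). This result rests on the 1 cel-miR-67 library. Set against the average of the other 5 miRNA libraries, a reference in which a difference common to all 6 cannot show, Gpx1 was between -0.29 (miR-302d-3p) and 0.36 (miR-199a-3p). Cardiomyocyte, fibroblast, endothelial and macrophage marker sums were likewise highest in the cel-miR-67 library, and their part in the Gpx1 level was not tested. The cardiomyocyte sum was nearly the same after miR-302d-3p (11195 RPKM against 11248), where Gpx1 was lowest. Most of that sum was Myl2 (6838 RPKM in the reference, 7354 after miR-302d-3p), while the median change of the cardiomyocyte list there was -0.31. Much of the fibroblast sum was Postn (107 RPKM against 38.3 to 56.8), and the median change of the fibroblast list was 0.15 after miR-199a-3p and -0.59 to -0.29 in the other 5.

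The gene with a pattern nearest to Gpx1 was Gria3 (0.05), a glutamate receptor gene, and Emilin1 (0.08), an elastic fibre protein gene, was also among the 3 nearest. Gria3 was at 11.8 RPKM after cel-miR-67 and 6.24 to 8.85 in the others, and the order of the extremes was that of Gpx1, with miR-302d-3p lowest. The Gpx1 promoter window (build GRCr8, chr8:117905212-117905511, plus strand) is shown because this gene had the lowest mean change of the group. It held no TGACNNNGC and 1 GC box, the letters GGGCGG searched on both strands and present in 33.1% of all windows and 58.7% of those of protein-coding genes in the table, in capitals here.
Gpx1 promoter: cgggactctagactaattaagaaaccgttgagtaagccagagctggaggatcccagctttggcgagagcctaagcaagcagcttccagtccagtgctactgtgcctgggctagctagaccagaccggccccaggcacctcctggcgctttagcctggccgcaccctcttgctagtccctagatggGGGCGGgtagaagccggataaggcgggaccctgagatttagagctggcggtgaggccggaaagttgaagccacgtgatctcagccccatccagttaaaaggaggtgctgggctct

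Cat encodes catalase, the peroxide-splitting enzyme of peroxisomes. It was at 17.0 RPKM after cel-miR-67, 14.5 with miR-199a-3p, 16.5 with miR-590-3p, 21.1 with miR-373-3p, 19.6 with miR-302d-3p, 22.5 with miR-33b* and 12.2 with miR-1825. The miR-33b* library was highest (ratio 1.32, 1.21 to 1.44) and the miR-1825 library lowest (0.714, 0.650 to 0.784). The highest and the lowest differed 1.85-fold. Scaled to all listed reads, the log2 change of Cat after miR-199a-3p turned positive (0.12). Nearest in pattern were SNORD37 (0.03), a small nucleolar RNA, Eif3h (0.07), a translation initiation subunit gene, and Nat9 (0.08). Eif3h was likewise highest after miR-33b* (64.9 RPKM) and lowest after miR-1825 (36.4), against 50.7 in the cel-miR-67 library.

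Levels of Gpx1 relative to Cat differed between libraries. Within a library the Gpx1 to Cat ratio was 9.99 (9.30 to 10.7) after cel-miR-67, 9.52 (8.86 to 10.2) after miR-199a-3p and 9.10 (8.42 to 9.86) after miR-1825. It was 4.82 to 5.08 with miR-33b*, miR-302d-3p and miR-373-3p, and 6.85 (6.36 to 7.37) after miR-590-3p. The value after miR-590-3p stood between the others.

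**Figure D4:**
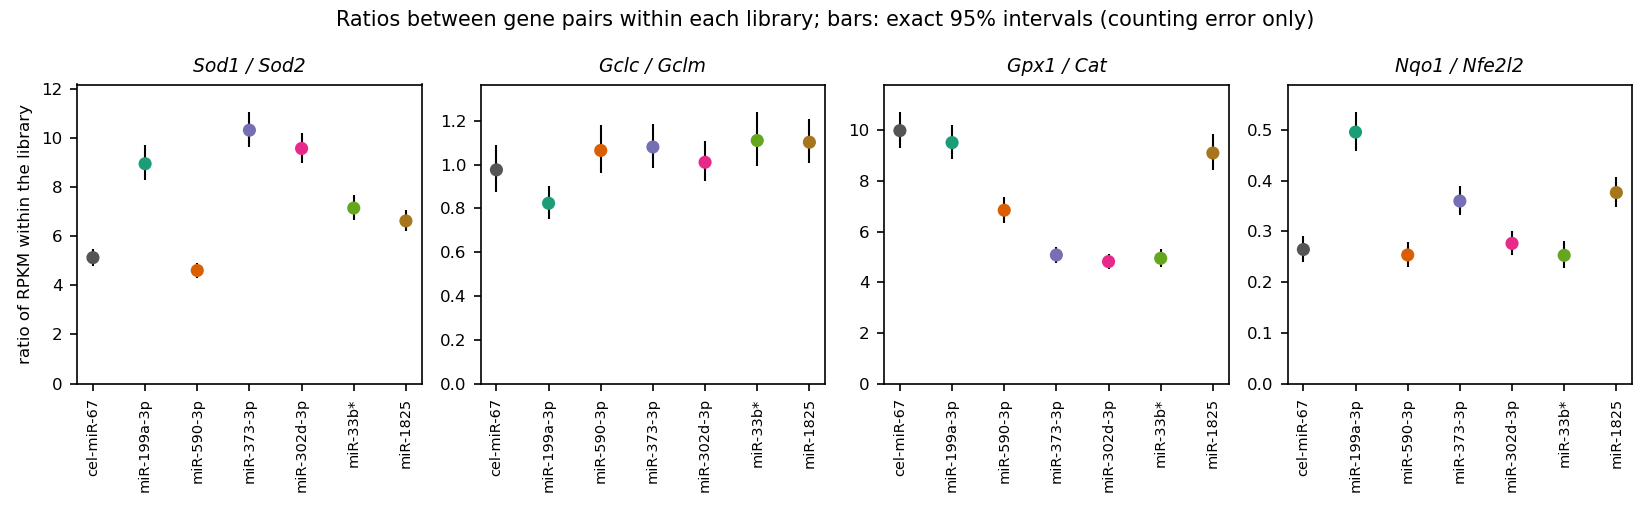
Ratio of RPKM between gene pairs within each library (y axis, from 0; x axis, the 7 libraries), with exact 95% intervals for counting error. Sod1 to Sod2 is highest after miR-373-3p (10.3), Gpx1 to Cat is 4.82 to 5.08 in 3 libraries, Gclc to Gclm is lowest after miR-199a-3p (0.824), and Nqo1 to Nfe2l2 is highest there (0.496).

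Prdx3, the peroxiredoxin of mitochondria, was at 102 RPKM after cel-miR-67, 95.9 with miR-199a-3p, 105 with miR-590-3p, 81.9 with miR-373-3p, 69.9 with miR-302d-3p, 85.2 with miR-33b* and 69.6 with miR-1825. Like Sod2 it was high in the cel-miR-67 and miR-590-3p libraries, but its lowest values came after miR-1825 (ratio 0.680, 0.646 to 0.715) and miR-302d-3p (0.683, 0.652 to 0.716), log2 changes of -0.55 and -0.54. These are just inside the 1.5-fold limit. After miR-199a-3p, where Sod2 was lowest, Prdx3 was at 0.937 (0.894 to 0.981) of the reference. Scaled to all listed reads, that log2 change turned positive (0.26).

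In levels, Sod1, Gpx1 and Prdx3 were the most abundant transcripts of the group per length, with means over the 7 libraries of 154, 121 and 87.2 RPKM. Nfe2l2 (45.7), Txnrd1 (25.9) and Sod2 (22.2) followed, then Cat (17.6), Gclc (15.8), Gclm (15.5) and Nqo1 (14.7), which overlapped in their ranges. The range of log2(RPKM + 1) over the 7 libraries was widest for Sod2 (1.03), Gpx1 (0.84), Cat (0.84), Nqo1 (0.80) and Prdx3 (0.59), which exceeded the median of 0.53 over 5182 genes averaging 10 RPKM or more. Those of the other 5 were smaller, at 0.33 to 0.43.

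Around these 10 genes, 119 distinct genes on 10 lists of redox function were examined, of which 101 were matched by symbol in a single row and reached a mean of 1 RPKM. Of their 606 gene and library pairs, 25 were at least 1.5-fold higher (4.13%) and 45 lower (7.43%), against 5.09% and 5.79% over all genes. Above 0 in all 6 libraries were 10 genes (9.90%) and below 0 were 16 (15.8%). At least 1.5-fold in all 6 were 0 in either direction.

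Of 15 measured genes of glutathione supply and recycling, 4 were above 0 in all 6 libraries and 1 below, against 13.9% and 13.4% of all genes. At least 1.5-fold higher were 7 of 90 pairs and lower were 2, against 5.09% and 5.79% of all pairs, and 4 of the 7 were Ggct. This gene, which encodes gamma-glutamylcyclotransferase, was at 3.50 RPKM after cel-miR-67, 2.76 with miR-199a-3p and 5.50 to 6.83 in the others, and the monothiol glutaredoxin gene Glrx3 at 72.6 against 75.7 to 98.8. Slc25a39, the carrier of glutathione into mitochondria, was at 45.3 RPKM after cel-miR-67, 22.0 with miR-373-3p and 19.7 with miR-302d-3p, and 39.7 to 49.8 in the remaining 4. It was low in both libraries of the shared seed alone, with changes of -1.01 and -1.16. Slc3a2, the heavy chain of the cystine importer, was at 44.9 against 31.2 to 42.6.

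Other glutathione peroxidases and transferases (17 measured) had 7 of 102 pairs at least 1.5-fold higher and 12 lower, against 5.09% and 5.79% of all pairs. Of the 12 lower, 6 were with miR-1825, where 6.33% of all genes were lower. The median there was -0.32, against -0.04 to 0.11 in the other 5. Gstm7 was at 16.0 RPKM after cel-miR-67, 38.5 with miR-199a-3p (1.21) and 15.6 to 20.3 in the rest. Gstp1, an abundant transferase, was at 61.1 RPKM after cel-miR-67 and at 94.7 and 95.4 with miR-373-3p and with miR-302d-3p, 89.7 with miR-199a-3p, 86.6 with miR-33b*, 69.3 with miR-1825 and 60.4 with miR-590-3p. The lowest mean changes were those of Gsta1 (12.9 RPKM against 5.57 to 13.8) and Mgst3 (80.0 against 36.1 to 85.5), both lowest after miR-1825 (-1.08 and -1.13). Transferase genes have near-identical copies between which reads may have been split.

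The other thioredoxin and peroxiredoxin genes (18 measured) had 2 of 108 pairs at least 1.5-fold higher and 11 lower, against 5.09% and 5.79% of all pairs. Txnip, an inhibitor of thioredoxin, was at 93.7 RPKM after cel-miR-67 and 53.2 to 77.2 in the others (-0.81 to -0.28), below the reference in all 6 while Txn1 was above it. Prdx6 was at 79.6 RPKM after cel-miR-67, 36.2 with miR-33b* (-1.11) and 41.8 with miR-199a-3p (-0.91), 48.8 with miR-1825 (-0.69) and 65.5 with miR-590-3p, and at 80.8 and 80.7 with miR-373-3p and with miR-302d-3p. Msrb3, which repairs oxidised methionine, was at 65.3 RPKM after cel-miR-67, 22.7 and 21.6 with miR-373-3p and with miR-302d-3p (-1.48 and -1.55), and 68.7 to 87.5 in the rest. The stress-induced sestrin gene Sesn3 was at 4.15 RPKM after cel-miR-67 and 8.64 with miR-1825 (0.90). On the list of Sod3 and Ccs, the gene Ccs, whose product is the copper chaperone of SOD1 and no dismutase itself, lay between -0.06 and 0.21. Sod3, the secreted enzyme, named after its values were seen, was at 3.01 RPKM after cel-miR-67 and 0.70 to 2.20 in the others. It was below 0 in all 6 libraries (-1.24 to -0.32), with a mean of 1.70 RPKM, near the limit on low values. Of the 12 pairs of this list 4, all Sod3, were at least 1.5-fold lower and 0 higher, against 5.79% and 5.09% of all pairs.

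**Figure D5:**
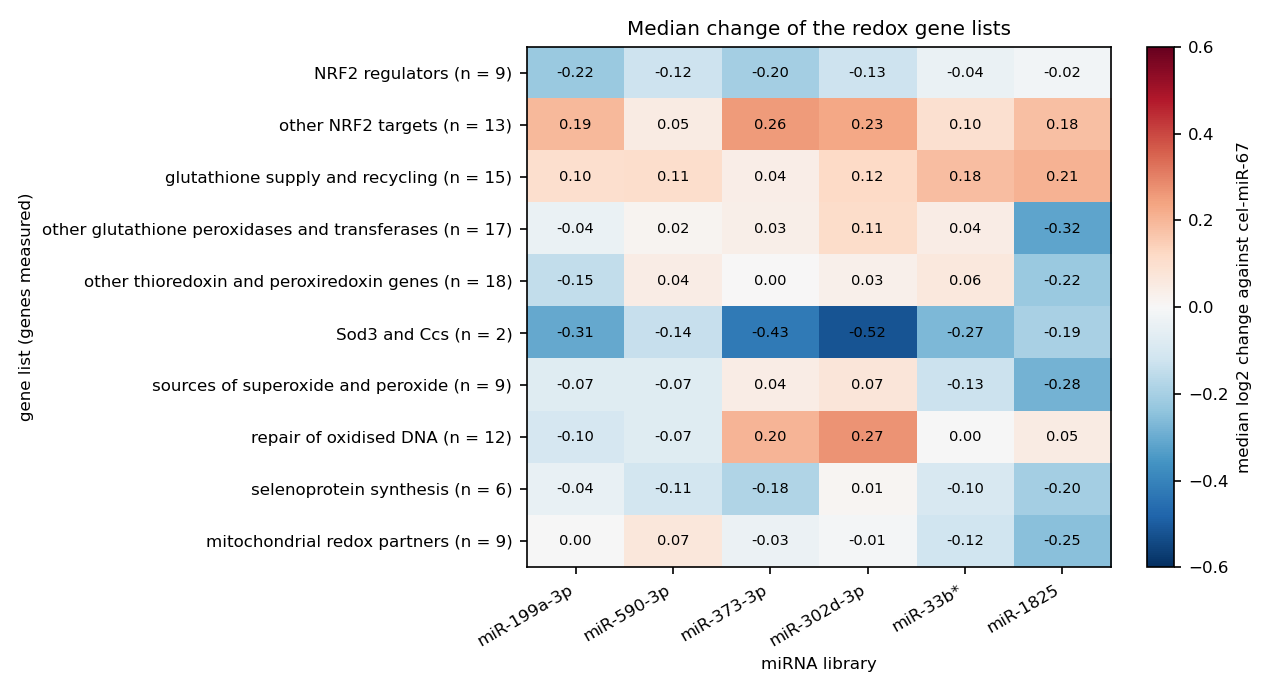
Median log2 change against cel-miR-67 (colour and printed value) of 10 redox gene lists (rows, with the number of genes measured) in the 6 miRNA libraries (columns). Other NRF2 targets lie at 0.05 to 0.26 and regulators of NRF2 at -0.22 to -0.02; the list of Sod3 and Ccs has 2 genes.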

How the data were processed

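Polyadenylated RNA of 7 cultures was sequenced, 1 library per miRNA. RPKM values were deposited by the authors for 17141 genes, with their ratio to the cel-miR-67 library. The submitters' processing notes list STAR 2.7, Rnor_6.0 (a rat genome build) and edgeR, with no role for any. For the counter, annotation, strand setting and near-identical copies, the sources used here give nothing. The 7 files of single samples equalled the series table, and 100292 deposited ratio values equalled the quotient of RPKM within 1e-06, so RPKM alone was used. Whole reads were worked out as the smallest gene length giving whole numbers in all libraries (100.0% of genes, tolerance 0.002 to 0.05 reads), a step tested on simulated data. The sizes behind RPKM differ from the listed totals (85.5% to 109.5%). Changes used a pseudocount of 1 RPKM and no test. Python 3.11.15, numpy 2.4.6, pandas 2.3.3, scipy 1.17.1 and matplotlib 3.10.9 were used. Text names all 10 genes, the 2 highest and 2 lowest mean changes and the largest single change per list at 5 RPKM or more, and the 3 most alike genes for 3 members, of which 1 is not reported here. Members and lists were chosen with earlier results of these data known. Of 119 list genes 8 were not matched by symbol and Cbr1, with 2 rows, was left out.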

Additional observations from a re-analysis of the deposited data

How the results depend on the processing

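The 8 pairs at least 1.5-fold lower stayed 8 with a pseudocount of 0.1 or the median ratio of all genes set to 1, and were 6 with a pseudocount of 5. The medians of all genes already lay between -0.0034 and 0.015, so setting the median ratio to 1 could change little. Scaled to listed reads without the mitochondrial genome there were 6 lower and 1 higher (Nqo1 after miR-199a-3p). With a 2-fold limit 0 were lower. With the other 5 miRNA libraries averaged as reference, 0 were lower and 1 higher (Sod2 after miR-590-3p), and Gpx1 after miR-590-3p turned to 0.017; a difference common to all 6 libraries cannot show there, and counts over all 6 were not made. Scaled to all listed reads, an alternative chosen after seeing the data, 1 pair was lower (Gpx1 after miR-302d-3p, all 3 Sod2 pairs being lost) and 2 higher, 3 genes were above 0 in all 6 libraries and 0 below. That scaling moves the median of all genes by 0.01 to 0.31, most after miR-199a-3p. With the median ratio set to 1, 1 gene was above and 2 were below 0 in all 6. Without the filter on low values the list pairs were 25 higher and 46 lower. No paired analysis was possible because each group is 1 library. With 422 reads or more per gene, the interval between the libraries of a shared seed excluded 1 for 7 of 10 genes. Those libraries are of different miRNAs and give no replicate spread. Whether depth or the missing replicates limits these results more was therefore not tested.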

Other observations

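Genes that produce reactive oxygen and genes that repair its damage to DNA were also examined, as values without a test. Of 9 measured sources of superoxide and peroxide, 5 of 54 pairs were at least 1.5-fold higher and 4 lower, against 5.09% and 5.79% of all pairs. Maoa, a monoamine oxidase of the outer mitochondrial membrane that yields peroxide, was at 10.7 RPKM after cel-miR-67, 20.8 with miR-199a-3p, 20.4 with miR-373-3p and 17.4 with miR-302d-3p, and 8.64 to 12.0 in the other 3. These were the 3 libraries in which Sod2 was lowest, but Maoa is 1 gene of the 9 measured, and a link to Sod2 was not tested. Poldip2 was at 44.2 RPKM after cel-miR-67 and lowest after miR-1825 (24.5), the NADPH oxidase subunit gene Cyba lay between 8.89 and 14.6 RPKM, and Rac1 between 49.4 and 56.0.

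Repair of oxidised DNA (12 genes measured) had 1 of 72 pairs at least 1.5-fold higher and 5 lower, against 5.09% and 5.79% of all pairs. Ogg1, which removes oxidised guanine, was at 6.11 RPKM after cel-miR-67 and 6.29 to 8.34 in the others, above the reference in all 6. Above 0 in all 6 libraries were 2 genes, Ogg1 and Nudt1, and below were 2, against 13.9% and 13.4% of all genes. The 2 below were Neil2 (5.12 RPKM against 2.66 to 3.62) and Mutyh (4.15 against 3.18 to 3.71). Nudt1, Neil2 and Mutyh were named after their values were seen. The 5 lower pairs came from Neil2 and, after miR-199a-3p, Parp1. The repair polymerase gene Polb was at 13.2 RPKM after cel-miR-67, 11.5 with miR-590-3p and 20.1 with miR-302d-3p. Parp1, which senses DNA breaks, was at 38.2 RPKM after cel-miR-67, 21.0 with miR-199a-3p (-0.83) and 54.2 with miR-302d-3p (0.50). Lig3 (5.18 to 6.37 RPKM) and Xrcc1 (9.62 to 11.4 RPKM) stayed within narrow ranges over the 7 libraries. Of 6 genes for selenoprotein synthesis, on which Gpx1 and Txnrd1 depend, 2 of 36 pairs were at least 1.5-fold lower and 0 higher, against 5.79% and 5.09% of all pairs. Both were after miR-1825: Secisbp2 (7.60 to 4.22 RPKM) and Trnau1ap (6.71 to 3.76). Sephs2, which makes the selenium donor, was at 14.7 RPKM after cel-miR-67 and 13.3 to 20.2 in the others, and Pstk at 7.33 against 5.53 to 6.80.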
